A study of Arabidopsis thaliana with 4 samples.

Results

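SAG29 (AT5G13170, also named SWEET15) is a member of the SWEET family of sugar transporters, and its transcript was followed with those of its relatives in Arabidopsis thaliana shoots treated with abscisic acid (ABA). The members were chosen by locus: SAG29 and the loci of SWEET1, SWEET2, SWEET4, SWEET11, SWEET12, SWEET13, SWEET14, SWEET16 and SWEET17. Of these 10 loci, 5 had a probe set named by the array's annotation, namely SAG29, SWEET11 (AT3G48740), SWEET13 (AT5G50800), SWEET14 (AT4G25010) and SWEET16 (AT3G16690), out of 11371 genes named on the array. The remaining 5 are not analysed here. The 7 SWEET loci outside the member list (SWEET3 and SWEET5 to SWEET10) all had a named probe set and are given beside the members. Each of these 12 genes had a single named probe set.

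The ABA group was 2 pools of shoots of wild-type Col-0 seedlings given 100 uM ABA in a solution of basal salts and 0.1% Tween 20, a wetting agent. The mock group was 2 pools of the same strain given, per its label, the salt and Tween solution. All seedlings were 14 days old, raised axenically on upright plates under 24 h light, submerged for 5 min and collected 4 h later, with roots removed and 20 to 24 shoots in a pool. Each pool was measured on its own 1-colour array, and all values below are fluorescence intensities of 1 probe set on 1 array, as processed by the authors. Plants with a changed ABA pathway or changed SWEET genes were not part of the design, so the comparison is between treatments of 1 strain only.

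SWEET proteins are small membrane proteins that let sugars cross a membrane down their gradient, without the proton coupling of the sucrose and hexose symporters. Members of clade III, which holds SWEET9 to SWEET14 and SAG29, carry mainly sucrose. In leaves SWEET11 and SWEET12 release sucrose from phloem parenchyma cells for loading into the phloem, whereas SWEET16 and SWEET17 sit in the vacuolar membrane. SAG29 was named for its induction in senescing leaves, is known to respond to osmotic stress and ABA, and acts with SWEET11 and SWEET12 in filling seeds.

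A dim probe set was judged against the noise level of each array, set at the absolute value of that array's 1st percentile, which is negative in the deposited values. It lay between 7.54 and 8.76 on the 4 arrays. Only SAG29, SWEET11 and SWEET13 among the members were above it on every array. The test was limma on log2(intensity + 16), two-sided, fitted on 19371 probe sets with Benjamini-Hochberg adjustment over all of them, and a call required an adjusted p under 0.05. A log2 change on this scale is ABA minus mock and understates the change of dim genes. The labels call the replicates biological. As each pool mixes the cell types of the shoot, more transcript per cell and more cells of a type cannot be told apart.

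**Figure D1:**
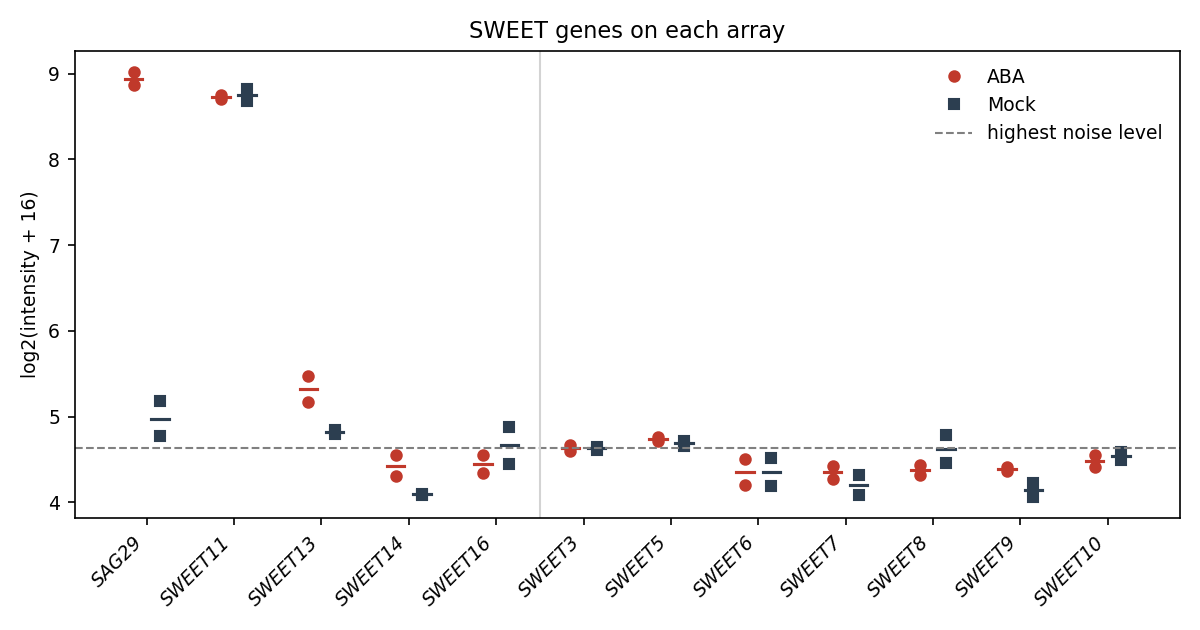
Level of each of the 12 named SWEET genes on the 4 arrays, as log2(intensity + 16), with ABA as circles and mock as squares. Short lines are the means of 2 arrays, the dashed line is the highest noise level (8.76), and the vertical line separates the 5 members on the left from the 7 other SWEET genes. SAG29 shows a wide gap between groups, SWEET11 is bright with overlapping groups, and most of the rest lie near or below the dashed line.

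Of the 5 members, 1 rose after ABA and 0 fell, and the riser was SAG29. Across all tested probe sets 3.97% were called higher and 19.6% lower. Of the 7 other SWEET genes none passed the threshold, the lowest adjusted p among them being 0.130 (limma). The median log2 change was 0.34 over the 5 members and 0.0058 over the 7 others, against -0.13 over all probe sets. The medians of the members and of the others are the values of SWEET14 and SWEET6. These genes were below the noise level on every array, so no rise of the family is read from the medians. No test was made of the family as a whole.

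SAG29 (AT5G13170) read 502 and 450 on the ABA arrays, against 20.4 and 11.3 on the mock arrays. Both ABA values lie far above both mock values, and the mock values, though low, are above the noise level of their arrays. The mean intensity was 476 ± 37.3 after ABA and 15.8 ± 6.44 in mock shoots (SD, n = 2 arrays each), a ratio of 30.1, with ratios of 22.1 to 44.6 over the 4 pairings of an ABA with a mock array. The mock arrays differed from each other more, in proportion, than the ABA arrays did, so the range of that ratio is set mostly by the mock level. The log2 change was 3.96 (SE 0.19, 95% interval 3.33 to 4.60, limma adjusted p = 0.0173). The lowest adjusted p of any probe set in this fit was 0.0166.

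Among the 11371 named genes, SAG29 had the rank of 5 by log2 change. Its large change was known from earlier results of these data, and the rank is a description. Under quantile normalization, median centring and scaling to spiked controls the rank was again 5, and with a pseudocount of 1 or 64 in place of 16 it was 10 or 7. The log2 change itself was 4.88 with 1 and 2.76 with 64, since the pseudocount weighs on the low mock level. Leaving out any 1 of the 4 arrays ended the call in limma (adjusted p = 0.0890 to 0.110) with the log2 change at 3.76 to 4.17, and no probe set of the whole array was then called, although 5780 to 6459 had an unadjusted p under 0.05.

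**Figure D2:**
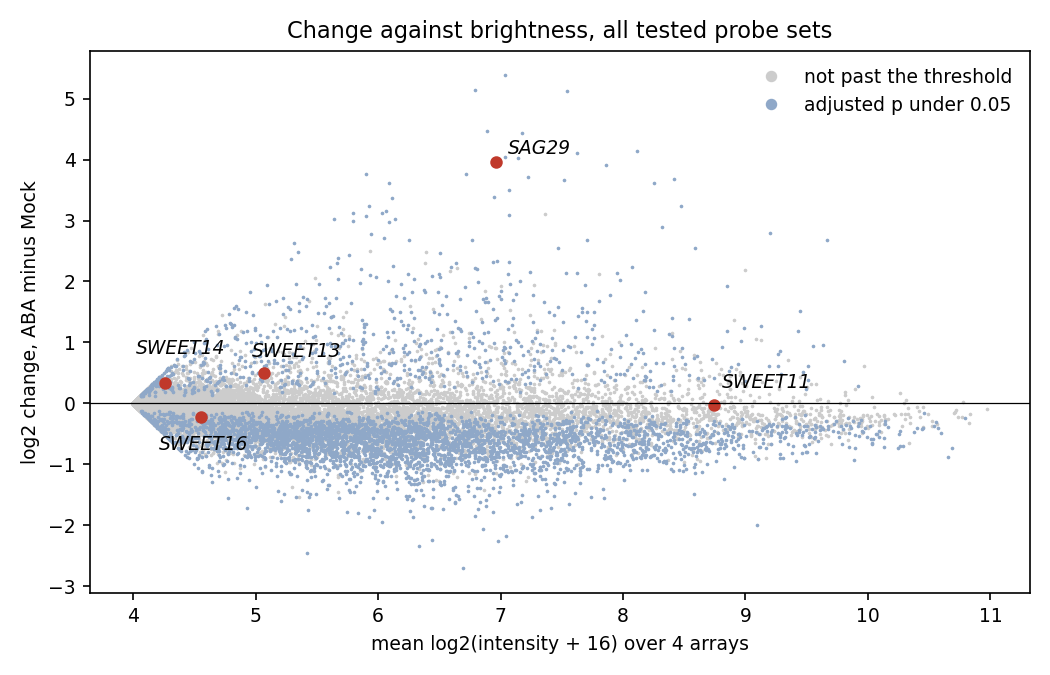
Log2 change (ABA minus mock) of each tested probe set against its mean log2(intensity + 16) over the 4 arrays, with the 5 members as large points. SAG29 stands at 3.96 near the top of the cloud, and SWEET11 lies on the zero line among bright probe sets whose median is below 0.

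SWEET11 (AT3G48740), the sucrose exporter of leaf phloem parenchyma, read 415 and 402 on the ABA arrays, against 437 and 393 on the mock arrays. The ABA values lie between the mock values. Its means were 408 ± 9.13 after ABA and 415 ± 31.0 in mock shoots, with a log2 change of -0.019 (SE 0.068, 95% interval -0.25 to 0.21, limma adjusted p = 0.908). On the scale as deposited the interval thus leaves out changes beyond these bounds, while it does not show that the level was equal.

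The sign of SWEET11 depends on how arrays are scaled to each other. All tested probe sets were ranked by mean intensity into 5 groups of equal size. The brightest group holds SWEET11 and also dimmer probe sets such as that of SAG29. This group had shifted down as a body, with a median log2 change of -0.33. After quantile normalization, which takes out this shift by construction, SWEET11 changed by 0.19 (limma adjusted p = 0.260), and after median centring by 0.18. With 1 factor per array from spiked control sets it changed by -0.48 and was called lower (limma adjusted p = 0.0311). The median of all probe sets was -0.0048, 0.070 and -0.34 in these scalings.

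A measure that no factor applied to a whole array can move is the ratio of a pair of probe sets on the same array. Levels of different probe sets are not comparable, so only the change of this ratio between arrays is read. A shift that differs with brightness can still move the ratio. The median log2 change was -0.33 in the brightness group of SWEET11 and -0.24 in that of SWEET13. The log2 ratio of SAG29 over SWEET11, without a pseudocount, was 0.28 and 0.16 on the ABA arrays, against -4.42 and -5.12 on the mock arrays. It was thus 4.99 higher on average after ABA, with no overlap of the groups. With 2 arrays against 2 an exact permutation test cannot give a p below 0.333, so the difference between these genes was not tested further.

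SWEET13 (AT5G50800), a clade III transporter known with SWEET14 from anthers, where they also carry gibberellin, read 28.3 and 20.0 on the ABA arrays, against 11.9 and 12.8 on the mock arrays. The groups do not overlap, and the mock values are just above noise. The ratio of the mean intensities was 1.95, and the log2 change was 0.49 (SE 0.13, 95% interval 0.059 to 0.93), which did not pass after adjustment (limma adjusted p = 0.101). It stayed above 0 in each scaling and pseudocount tried. It passed after median centring (log2 change 0.70, limma adjusted p = 0.0284) and when the dimmest 40% of probe sets were left out (adjusted p = 0.0105). It did not pass after quantile normalization (0.71, adjusted p = 0.0952) or spike scaling (0.25, adjusted p = 0.288). Median centring raised the change of all probe sets alike, by moving their median to 0.070. The log2 ratio of SWEET13 over SWEET11 within an array was -3.88 and -4.33 on the ABA arrays, against -5.20 and -4.94 on the mock arrays, a difference of 0.97 on average.

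SWEET14 (AT4G25010) read 7.42 and 3.81 on the ABA arrays, against 0.931 and 1.17 on the mock arrays. All 4 values are below the noise level, so no fold change is given, although the ABA values are the higher ones (log2 change 0.34, limma adjusted p = 0.132). SWEET16 (AT3G16690), the vacuolar member, read 4.25 and 7.38 on the ABA arrays, against 13.4 and 5.85 on the mock arrays. These groups overlap, 1 mock array alone is above noise, and the log2 change of -0.22 had a 95% interval from -0.90 to 0.46.

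The 7 other SWEET genes read between 0.721 and 11.6 on the arrays. SWEET5, known from the pollen vegetative cell, read 10.3 and 11.1 on the ABA arrays, against 9.20 and 10.4 on the mock arrays. SWEET3 read 8.16 and 9.42 on the ABA arrays, against 8.43 and 9.11 on the mock arrays. These 2 were just above noise on every array, with overlapping groups and log2 changes of 0.052 and 0.00072. SWEET6, SWEET7, SWEET8 (an anther gene needed for pollen wall formation), SWEET9 (the nectary sucrose exporter) and SWEET10 were at or below noise on all or all but 1 of the arrays. Their log2 changes ran from -0.25 for SWEET8 to 0.24 for SWEET9. The signs of SWEET3, SWEET5, SWEET6 and SWEET10 differed between scalings.

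Without regard to a test, both ABA arrays lay above both mock arrays for 3 of the 5 members (SAG29, SWEET13 and SWEET14) and below them for 0. Over all tested probe sets these shares were 15% above and 50.8% below. Among the 7 other SWEET genes 1 lay above (SWEET9) and 1 below (SWEET8). SWEET14, SWEET9 and SWEET8 had values near or under the noise level. After quantile normalization 4.61% of all probe sets were called higher and 5.22% lower, and of the 5 members SAG29 alone was called, with a log2 change of 4.16 (limma adjusted p = 0.0266).

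**Figure D3:**
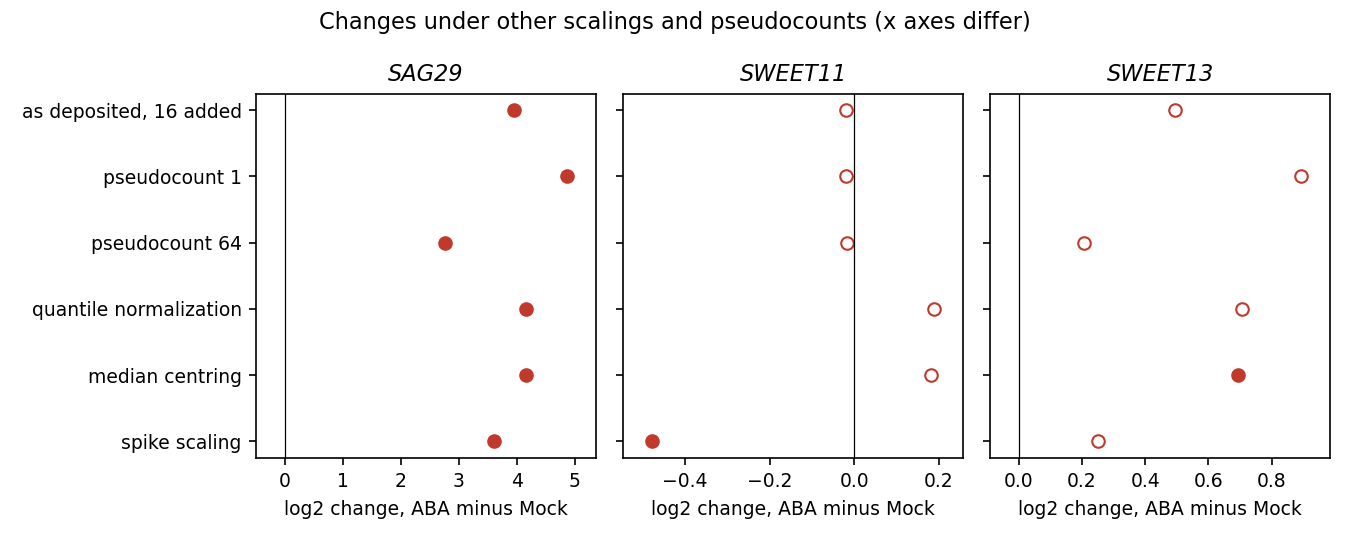
Log2 change (ABA minus mock) of SAG29, SWEET11 and SWEET13 as deposited and under other pseudocounts and scalings, with filled points for an adjusted p under 0.05 and x axes that differ between panels. SAG29 stays between 2.76 and 4.88 and is called in each, SWEET11 changes sign, and SWEET13 stays above 0 and is called after median centring only.

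Position along the chromosome was compared by the order of protein-coding genes in the TAIR10.1 assembly. SWEET13 and SWEET10 are direct neighbours. SWEET10 read 5.36 and 7.39 on the ABA arrays, against 7.95 and 6.57 on the mock arrays, with no gap between groups. Of the 10 genes next to a member on either side, 5 had a named probe set, and 0 of these passed (log2 changes -0.057 to 0.20, lowest limma adjusted p = 0.312). Both genes beside SAG29 lack a named probe set, so its neighbourhood was not analysed here.

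The genes whose pattern was most like that of SAG29 were taken as those with the smallest root mean square distance between log2 values centred on each gene's mean, over the 4 arrays and outside the gene lists used here. They were COR15A, a cold-regulated chloroplast protein gene (distance 0.156), AT2G47780 (0.163), KIN1, a cold- and ABA-induced gene (0.188), AT2G41190 (0.219) and AT3G17520 (0.221). Their log2 changes were 3.68 for COR15A, 3.76 for AT2G47780, 3.72 for KIN1, 4.05 for AT2G41190 and 3.77 for AT3G17520. AT3G17520 was below noise on both mock arrays, so its place here rests on the pseudocount of 16. With 1 or 64 in its stead the change of AT3G17520 was 7.45 or 2.07, against 4.88 or 2.76 for SAG29. The changes of COR15A (3.91 or 3.15) and KIN1 (4.33 or 2.73) also moved away from that of SAG29. Those of AT2G47780 (4.78 or 2.51) and AT2G41190 (4.92 or 2.86) stayed closer. The order of these genes thus depends on the pseudocount, and distances were computed with 16 only. With 2 groups of 2 arrays such likeness is mostly a likeness in the size of the change.

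Other sugar carriers and sucrose-cleaving enzymes were taken from lists written by locus. Of 59 loci in these lists, 12 had a named probe set, and 0 rose and 3 fell, with a median log2 change of -0.11. Of all probe sets 3.97% were called higher and 19.6% lower, so these counts are near the background. The sucrose-proton symporters, which load sucrose into the phloem and take it up from outside the cell, had 0 of 9 loci named. These symporters were not analysed here.

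TMT1, which encodes a carrier moving monosaccharides into the vacuole, read 20.7 and 22.3 on the ABA arrays, against 45.2 and 46.7 on the mock arrays. The groups are far apart relative to their spread, with a log2 change of -0.73 (SE 0.035, limma adjusted p = 0.0173). It was lower after quantile normalization too (-0.44, adjusted p = 0.0312). Its relative TMT2 read 78.1 and 93.6 on the ABA arrays, against 51.6 and 64.5 on the mock arrays, and its log2 change of 0.46 did not pass (limma adjusted p = 0.132). TMT2 passed after median centring (0.66, adjusted p = 0.0295) and without the dimmest probe sets (adjusted p = 0.0165), but not after quantile normalization (0.76, adjusted p = 0.0843) or spike scaling (0.072, adjusted p = 0.745). Its probe set is of a kind that can bind related transcripts. SFP1, also of this list, read 84.3 and 81.3 on the ABA arrays, against 132 and 105 on the mock arrays. Its log2 change of -0.43 did not pass (limma adjusted p = 0.121), though it did under spike scaling (-0.84, adjusted p = 0.0264) and without the dimmest probe sets (adjusted p = 0.0175), and it was -0.16 after quantile normalization. TMT2 and SFP1 were picked for mention after their values were seen.

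AT5G17010, which has only a locus code in the reference and was listed among the vacuolar, plastid and polyol carriers, read 56.3 and 63.7 on the ABA arrays, against 130 and 138 on the mock arrays (log2 change -0.98, limma adjusted p = 0.0205, and -0.71 with adjusted p = 0.0391 after quantile normalization). AT2G20780, from the same list, read 14.9 and 14.8 on the ABA arrays, against 23.9 and 22.8 on the mock arrays (log2 change -0.35, limma adjusted p = 0.0206). It did not pass after quantile normalization (-0.11, adjusted p = 0.123), after median centring (-0.15, adjusted p = 0.141) or with an intensity trend in the variance (adjusted p = 0.0593). In this list of 20 loci 7 were named, of which TMT1 and these 2 fell and 0 rose, against 19.6% lower and 3.97% higher over all probe sets.

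Of the 14 hexose-proton symporter loci 3 were named and none passed. AT5G61520, the brightest of them, read 43.0 and 51.1 on the ABA arrays, against 64.6 and 60.7 on the mock arrays (log2 change -0.32, limma adjusted p = 0.106). It passed under spike scaling (-0.69, adjusted p = 0.0106) and without the dimmest probe sets (adjusted p = 0.0360), but not after quantile normalization (-0.011, adjusted p = 0.993). AT1G34580 was below noise on every array. Of the 16 loci of invertases and sucrose synthases 2 were named and none passed. AT1G62660, listed as a vacuolar invertase, read 218 and 205 on the ABA arrays, against 129 and 78.2 on the mock arrays. These groups do not overlap, but the mock arrays differ widely, and the log2 change of 0.96 did not pass (SE 0.27, limma adjusted p = 0.113). It passed after median centring (1.16, adjusted p = 0.0323) and without the dimmest probe sets (adjusted p = 0.00355), but not after quantile normalization (1.20, adjusted p = 0.113) or spike scaling (0.53, adjusted p = 0.232). A second probe set of AT1G62660 was below noise on every array, and the brighter one is of a kind that can bind related transcripts. CWINV6, a cell wall invertase family gene, was below noise throughout.

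Starch breakdown, which supplies sugar for export at night, had 2 of 12 loci named. DPE1, the plastid disproportionating enzyme, read 78.8 and 99.8 on the ABA arrays, against 125 and 120 on the mock arrays (log2 change -0.40, limma adjusted p = 0.134). PWD, phosphoglucan water dikinase, read 114 and 123 on the ABA arrays, against 137 and 137 on the mock arrays (log2 change -0.18, limma adjusted p = 0.0918). Neither passed as deposited. Under spike scaling both were called lower (DPE1 -0.81, limma adjusted p = 0.0157, and PWD -0.61, adjusted p = 0.00731). DPE1 also passed without the dimmest probe sets (adjusted p = 0.0233). After quantile normalization DPE1 changed by -0.13 and PWD by 0.072, and neither passed. The sign of PWD thus depends on the scaling.

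Senescence genes were listed because SAG29 bears that name. Of 17 loci 3 were named, of which 1 rose and 0 fell, against 3.97% higher and 19.6% lower over all probe sets. The riser was WRKY53, a transcription factor gene of early leaf senescence, at 21.8 and 21.2 on the ABA arrays, against 11.1 and 9.56 on the mock arrays (log2 change 0.51, SE 0.041, limma adjusted p = 0.0226). SAG101 and WRKY6 did not pass (log2 changes of -0.11 for SAG101 and 0.54 for WRKY6, whose probe set was above noise on 1 of 4 arrays). None of the 31 listed loci of ABA perception, signalling and turnover was named, so these were not analysed here.

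**Figure D4:**
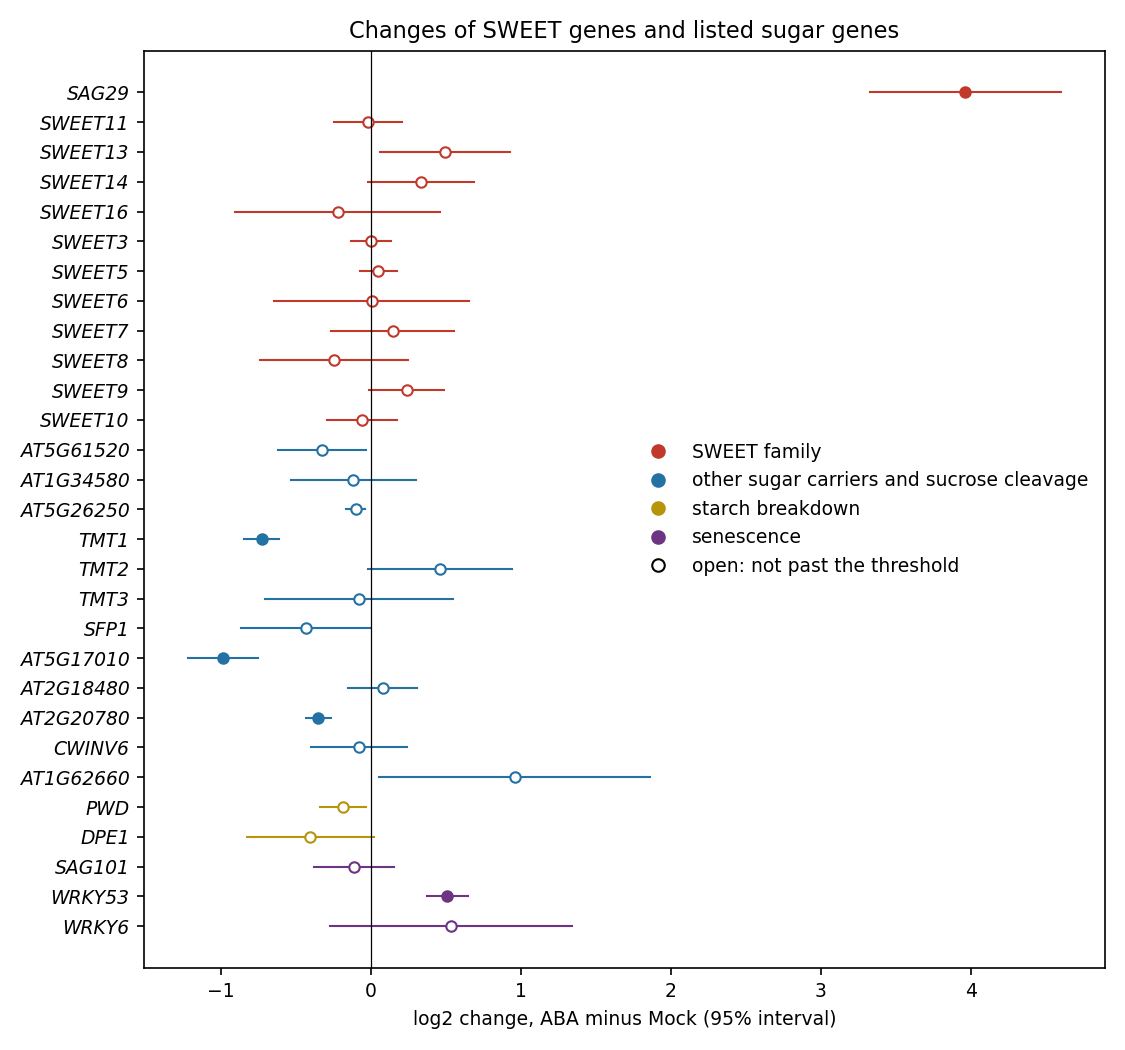
Log2 change (ABA minus mock) with its 95% interval from limma for the 12 SWEET genes and 17 listed genes of sugar carriage, sucrose cleavage, starch breakdown and senescence. Filled points passed the threshold: SAG29 and WRKY53 were higher, and TMT1, AT5G17010 and AT2G20780 were lower.

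As a check of the tissue, 4 of 6 listed markers of green shoot tissue were named, and all were bright, with summed intensities of 3873 and 3655 on the ABA arrays, against 5431 and 5821 on the mock arrays. The brightest probe sets of these 4 genes (RCA, LHCB4.1, LHCB4.2 and LHCB4.3) were called lower after ABA, beside 19.6% of all probe sets. Those of RCA, LHCB4.1 and LHCB4.2 are of a kind that can bind related transcripts. Among these probe sets RCA alone kept the call after quantile normalization (LHCB4.1 -0.055, LHCB4.2 -0.11 and LHCB4.3 -0.83, limma adjusted p = 0.530, 0.300 and 0.0628). After median centring LHCB4.1 and LHCB4.2 did not pass. A dimmer probe set of each of RCA, LHCB4.1 and LHCB4.2 was also lower as deposited but did not pass (limma adjusted p = 0.117, 0.0961 and 0.135). A further RCA probe set was called lower (limma adjusted p = 0.0184). After quantile normalization the dimmer RCA probe set did not pass (-0.32, limma adjusted p = 0.327), and the further one did (-0.70, adjusted p = 0.0342). Of 5 root markers 2 were named. PYK10, which encodes an abundant beta-glucosidase of underground organs, read 104 and 120 on the ABA arrays, against 320 and 280 on the mock arrays, and was called lower. EXPA7, of root hairs, was below noise on every array, at 1.75 and 1.58 on the ABA arrays, against 0.337 and 0.175 on the mock arrays, and was called higher (log2 change 0.12, limma adjusted p = 0.0491). EXPA7 kept this call after median centring (adjusted p = 0.0335) and with a pseudocount of 1 (0.0317). The call was lost after quantile normalization (adjusted p = 0.0620), under spike scaling (0.0557) and with a pseudocount of 64 (0.0908). The part of these markers in the SWEET results was not tested. Markers of phloem companion cells (0 of 3 named) and of seeds (0 of 5 named) were not checked.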

How the data were processed

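Per the labels' protocols, column-purified total RNA was amplified, labelled with biotin and hybridised to 1-colour arrays. The authors deposited 1 intensity per probe set and array on a linear scale, with values below 0. The authors' background correction, summarisation and scaling were not given in the sources used here. Of 19658 probe sets 287 control sets were left out. Probe sets were named by the platform annotation, matched to TAIR10.1 by gene identifier for 11547 probe sets and by locus for 45, while 6 kept the annotation's name. For genes with several probe sets the brightest by mean over the 4 arrays was used.

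Negative intensities were replaced by 0, and log2(intensity + 16) was computed. limma 3.58.1 in R 4.3.3 compared ABA with mock, with no other term. The test was checked on simulated data with no shift between groups, in which only probe sets brighter than SAG29 in mock shoots were changed. That check thus does not cover dim genes or the shift seen here. Alternatives were other pseudocounts, scalings, a brightness filter, an intensity trend, a replicate block and leaving out arrays. The members and gene lists were chosen with earlier results of these data known. Every named SWEET gene is given, and listed markers of green tissue and root were read as a tissue check. From each other list the text names members past the threshold, or the 2 largest changes where none passed. TMT2, SFP1, SAG101 and WRKY6 are given in addition to this rule. Precision is limited by the number of arrays.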

Additional observations from a re-analysis of the deposited data

How the results depend on the processing

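The log2 change of SAG29 stayed past the threshold under each pseudocount, scaling, filter and variance model tried, at 2.76 to 4.88. With the replicate number as a block it was 3.96 with an adjusted p of 0.0733, and no probe set of the array was called (limma, lowest adjusted p = 0.0733, 7115 with an unadjusted p under 0.05). The counts of members, of sugar genes that fell and of starch and senescence genes that rose were likewise 0 with the block. The labels share replicate numbers across groups without saying what they mean, so the numbers were not taken to pair the arrays. The differences between replicates correlated at 0.039 between groups over 19371 probe sets. These include dim probe sets and values set to 0, so the correlation cannot show that the arrays were unpaired. Leaving out 1 array gave 3.76 to 4.17 for SAG29, with 0 calls on the whole array and 0 in each of these counts. The fewer residual degrees of freedom in such fits go with this loss, and the lone array of a group is assumed to vary like the pair.

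Of 19371 tested probe sets, median centring gave 1878 higher and 2424 lower, against 769 and 3805 as deposited. Quantile normalization gave 893 higher and 1011 lower, and spike scaling 525 higher and 8085 lower. The filter on dim probe sets gave 1063 higher and 5809 lower among fewer probe sets, as the dimmest 40% were left out before the fit. The share of lower among all calls was thus far smaller after quantile normalization and median centring. Of the 5 members, 3 were called higher after median centring (SAG29, SWEET13 and SWEET14) and 2 with the filter, against 1. SWEET11 was the 1 member called lower under spike scaling, against 0. Of the 12 named sugar carriers and sucrose-cleaving genes, 2 were called higher after median centring and 2 with the filter, against 0. Those called lower numbered 6 under spike scaling and 5 with the filter, against 3. Of the 5 named starch and senescence genes, 2 were lower under spike scaling and 1 with the filter, against 0. The filter also took out some listed genes, SWEET14 and SWEET16 among them. Calls over all probe sets rose in the same settings and directions, so these counts are not read as a result about the listed genes. SWEET3 turned from 0.00072 to -0.17 under spike scaling (limma adjusted p = 0.0448), at values near noise. Over 28 listed genes other than SAG29 and all alternatives, 19 further values passed in the same direction without passing as deposited, and 23 lost the call. The cause of these differences was not tested. No member had another probe set to try. The second probe set of AT1G62660 left the counts of sugar genes at 0 higher and 3 lower.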
